A study of Bos taurus with 4 samples.

Results

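The 10 transcripts described here are encoded by the mitochondrial genome of cattle: ND1, ND2, ND4 and ND5, subunits of complex I; CYTB, the cytochrome b of complex III; COX1, COX2 and COX3, the core subunits of complex IV; and ATP6 and ATP8, subunits of the ATP synthase. They were found by gene name among the 21861 features of single-nucleus RNA sequencing libraries, and each name matched 1 feature (Ensembl identifiers ENSBTAG00000043558 for ND1, ENSBTAG00000043561 for COX1, ENSBTAG00000043560 for COX3 and ENSBTAG00000043550 for CYTB, for example). Counts are unique molecular identifiers (UMIs), each standing for 1 captured RNA molecule. Shares of UMIs are given by library and by nucleus type, in intramuscular fat and in subcutaneous fat of the back. The most unequal value is that of intramuscular fat of animal 2, where the 10 transcripts together had 10 UMIs of 105481. That near absence was part of why these genes were chosen, so its size is described and supports nothing else.

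Mitochondria keep a small circular genome that codes for a few subunits of the respiratory chain and the ATP synthase. All other subunits of those complexes are coded in the nucleus, made in the cytoplasm and imported, and each complex that the mitochondrial genome contributes to is assembled from both kinds. The mitochondrial genes are read as long transcripts from both strands, which nuclear-encoded factors process into mRNAs inside the organelle. Mitochondria lie outside the nucleus, so in a preparation of nuclei their transcripts are commonly read as a sign of cytoplasm carried over with the nuclei. White adipocytes hold few mitochondria for their volume, and oxidative muscle fibres hold many.

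The data came from 2 beef steers, which the sample names call cows, raised on a commercial feedlot. Each animal gave 1 library of intramuscular fat and 1 library of subcutaneous backfat, so there were 2 libraries per depot, with no treatment, and the labels describe the diet, age and breed as unknown. Nuclei were freed from fresh tissue with a Dounce homogeniser and made into droplet-based 3′ libraries. With 1 library per depot and animal, p-values between depots measure the spread between 2 animals. P-values between nucleus types concern how the difference between types varies between libraries. With few libraries, the tests of single genes take much of that variation from the other genes. For adipocytes against other non-muscle nuclei, both libraries of animal 1 enter as separate libraries. In sums over a whole library, the mix of nucleus types and the RNA per nucleus cannot be told apart.

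After the filter of at least 200 detected genes, the intramuscular libraries of animals 1 and 2 held 1777 and 63 nuclei of 1777 and 80 deposited barcodes, and the subcutaneous libraries held 881 and 6128 of 881 and 7155. Their UMIs totalled 2719366 and 105481 in intramuscular fat, and 1143166 and 4009437 in subcutaneous fat. Median UMIs per nucleus were 1100 and 805, against 847 and 518. The libraries shared 5 cell barcodes in all. Muscle fibre markers took 0.00360% and 0.0104% of UMIs in the intramuscular libraries, with 8 and 19 of the 23 markers at 0, against 5.86% and 23.5% in the subcutaneous libraries, with none at 0. Adipocyte markers took 1.01% and 1.60% in the intramuscular libraries and 0.427% and 0.0458% in the subcutaneous ones. The muscle RNA was therefore in the libraries labelled subcutaneous, and each direction between depots below holds for the labels as given. The intramuscular library of animal 2 stands apart by its few nuclei and its few mitochondrial UMIs, and results are given with and without it.

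Summed over the 10 transcripts, 3 libraries lay close to each other and 1 lay far below. Mitochondrial transcripts took 1.17% of UMIs in the intramuscular library of animal 1 (exact 95% interval 1.16 to 1.19) and 0.00948% in that of animal 2 (0.00455 to 0.0174). The subcutaneous libraries had 1.16% (1.15 to 1.18) and 1.52% (1.51 to 1.54). Intervals here and below are for counting error alone. In animal 1 the ratio of intramuscular to subcutaneous was 1.01 (0.987 to 1.03). In animal 2 the intramuscular share was 161-fold lower than the subcutaneous one (87.4 to 335). The mean share was 0.591% ± 0.823 in intramuscular and 1.34% ± 0.254 in subcutaneous fat (SD, n = 2 each). The difference of -0.753 percentage points had an exact two-sided permutation p of 0.667, and the design cannot go below 0.33. Without the intramuscular library of animal 2 the difference was -0.172 points.

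Levels of single transcripts are given as CPM, the UMIs of a transcript over all UMIs of its library on a fixed scale, on which the 1.17% of the intramuscular library of animal 1 equals 11728 CPM. They are not adjusted for length, since a 3′ count reads 1 end of each molecule, and priming within a transcript can differ between genes. An order of CPM between genes is thus an order of captured ends. Among the complex I subunits of the 10, ND1 and ND4 were the most captured in every library that had UMIs for them. ND1, which helps form the membrane arm of complex I, had 1047 and 0 CPM in intramuscular fat and 915 and 1123 CPM in subcutaneous fat. ND2, of the same arm, had 703 and 0 CPM against 590 and 557 CPM. The proton-pumping subunit ND4 had 910 and 0 CPM against 951 and 1336 CPM. ND5, the distal pumping subunit, had 211 and 28.4 CPM against 225 and 205 CPM. In each of these the intramuscular library of animal 2 was the lowest, while the intramuscular level of animal 1 lay above both subcutaneous levels for ND2, between them for ND1 and ND5, and below both for ND4.

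Of the 10, the complex IV transcripts were the most captured in the other 3 libraries. COX1, the catalytic subunit that holds the haem and copper centre, had 2540 and 47.4 CPM in intramuscular fat and 2593 and 3377 CPM in subcutaneous fat. COX2, which takes electrons from cytochrome c, had 1316 and 0 CPM against 1236 and 2226 CPM. COX3, a structural core subunit, had 2864 and 19.0 CPM against 2906 and 3351 CPM. CYTB, the electron carrier of complex III, had 1003 and 0 CPM against 1016 and 1404 CPM. ATP6, the proton channel subunit of the ATP synthase, had 1081 and 0 CPM against 1136 and 1609 CPM. ATP8, a small membrane subunit, was the least captured, with 52.2 and 0 CPM against 81.4 and 50.6 CPM. In the gene table ATP8 overlaps ATP6, ATP6 overlaps COX3, ND4 overlaps ND4L and ND5 overlaps ND6. How UMIs at those borders were assigned was not tested. The intramuscular level of animal 1 lay between the subcutaneous ones for COX2 and ATP8, and below both, by small margins in animal 1, for COX1, COX3, CYTB and ATP6.

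**Figure D1:**
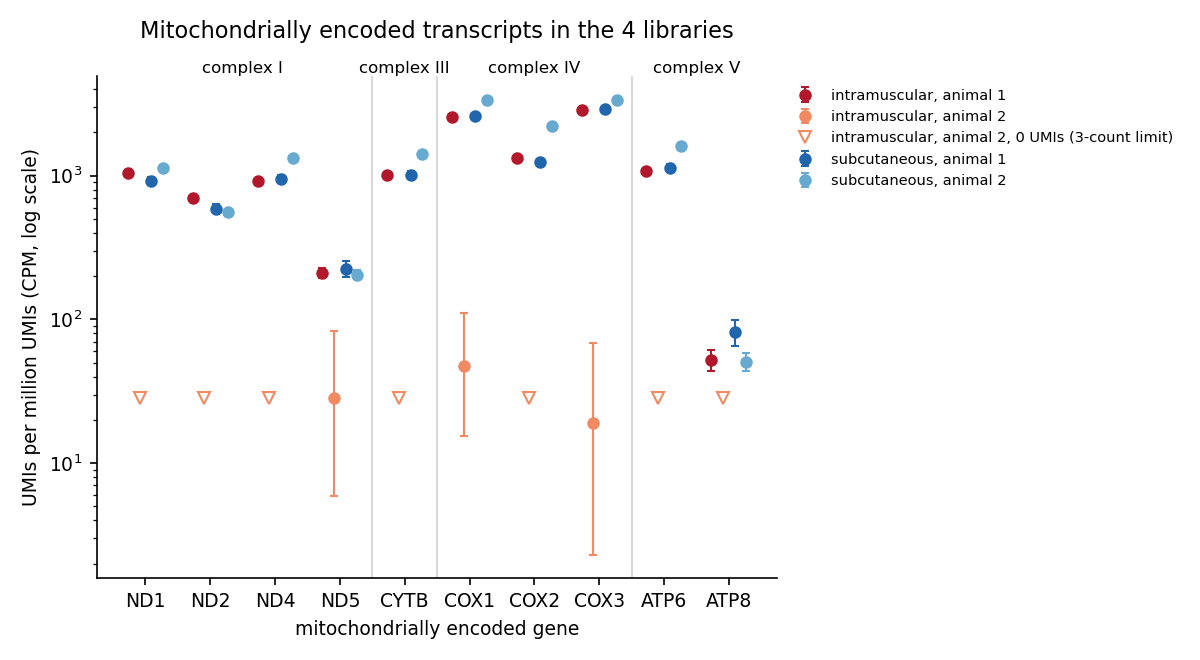
CPM (log scale) of each of the 10 transcripts in the 4 libraries, grouped by complex, with exact 95% counting intervals; open triangles stand for 0 UMIs and are drawn at the level that 3 UMIs would give. The intramuscular library of animal 2 lies at 47.4 CPM or lower for every transcript, below the other 3 libraries, with the smallest drawn gap for ATP8.

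In the intramuscular library of animal 2 the 10 UMIs were 5 of COX1, 3 of ND5 and 2 of COX3. The other 7 transcripts had 0 UMIs, which allows up to 28.4 CPM each. At the rate of the intramuscular library of animal 1, 1237 UMIs would have been counted there. COX1 was 71.2-fold lower than in subcutaneous fat of the same animal (30.5 to 219), COX3 177-fold lower (48.9 to 1459) and ND5 7.21-fold lower (2.46 to 35.0). Taking 3 UMIs in that library as the limit for transcripts at 0, COX2 was at least 78.3-fold lower, ATP6 at least 56.6-fold, CYTB at least 49.4-fold, ND4 at least 47.0-fold, ND1 at least 39.5-fold and ND2 at least 19.6-fold. For ATP8 the bound was at least 1.78-fold, the weakest, because it is rare in every library. Of the mitochondrial protein genes outside the 10, ND3 was 67.3-fold lower (18.6 to 556) on 2 UMIs. ND6, also on 2 UMIs, was 1.92-fold lower with an interval that includes 1 (0.522 to 16.0), and ND4L, at 0, had a bound of at least 1.55-fold. Members were 71.4% of the 14 UMIs of all 13 mitochondrial protein genes there, against 88.5%, 89.3% and 91.8% in the other libraries.

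The near absence was spread over the nuclei. In the intramuscular library of animal 2 a member UMI was seen in 9 of 63 nuclei, 14.3%, and no nucleus had more than 2. In the intramuscular library of animal 1 all 1777 nuclei had one, and in the subcutaneous libraries 99.8% and 99.5% had one. For COX3 alone, 96.5% and 3.17% of intramuscular nuclei had a UMI, against 86.4% and 78.7% of subcutaneous nuclei. With each nucleus thinned to 500 UMIs, the shares were 97.6% and 2.00% in intramuscular fat, the second being 1 of 50 nuclei, against 95.6% and 98.8% in subcutaneous fat. Thinning left out 0 and 13 nuclei of the intramuscular libraries and 112 and 2845 of the subcutaneous ones. No cell type lacks these genes, so no type could serve as a background for free RNA.

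Within animal 1, where both depots had many UMIs, the depots differed little, in both directions. The ratio of intramuscular to subcutaneous CPM was 1.19 for ND2 (1.09 to 1.30), 1.14 for ND1 (1.07 to 1.23) and 1.06 for COX2 (1.00 to 1.13). COX3 stood at 0.986 (0.946 to 1.03), COX1 at 0.980 (0.938 to 1.02) and CYTB at 0.987 (0.921 to 1.06). ATP8 was the farthest from 1, at 0.642 (0.491 to 0.843), on 142 and 93 UMIs. Counting intervals for ND1, ND2, COX2 and ATP8 lay off 1, but with 1 library a side there is no replicate check within an animal.

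Across whole-library sums, a quasi-likelihood test in edgeR (Benjamini-Hochberg adjusted p, threshold 0.05) called 1.52% of 11147 genes between depots, 0.0538% as higher and 1.46% as lower in intramuscular fat. Of the 10 members it called 0, with 0 at an unadjusted p under 0.05, and DESeq2 called 0. Their log2 fold changes lay between -2.31 for COX2 and -1.43 for ND2, with a median of -1.98 against -0.16 over all genes tested, and the smallest adjusted p in edgeR was 0.597 (ATP8). Without the intramuscular library of animal 2 the median became -0.88, with 0 called. Without that of animal 1 it was -13.32, a value set by the zeros and no measure of size, again with 0 called. The muscle RNA of the subcutaneous libraries moves with this comparison, and its part in the result was not tested.

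The mix of the 10 transcripts could be read in 3 libraries. Given as shares of the UMIs of the 10, complex IV took 57.3% in the intramuscular library of animal 1, against 57.8% and 58.8% in the subcutaneous libraries. Complex I took 24.5%, against 23.0% and 21.1%, complex III 8.55% against 8.73% and 9.21%, and complex V 9.66% against 10.5% and 10.9%. COX3 was the most frequent transcript in both libraries of animal 1, at 24.4% in intramuscular and 24.9% in subcutaneous fat. In the subcutaneous library of animal 2 COX1 and COX3 were about level, at 22.2% (21.8 to 22.5) and 22.0% (21.7 to 22.3). COX2 took 11.2% in intramuscular fat of animal 1, against 10.6% and 14.6% in subcutaneous fat. ND2 took 5.99%, against 5.06% and 3.66%, and ATP8 0.445%, against 0.698% and 0.332%. The shares of complexes III, IV and V thus stood closer together than those of COX2, ND2 and ATP8. In the intramuscular library of animal 2 the 10 UMIs were too few to give a mix, 70.0% for complex IV with an interval of 34.8 to 93.3.

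Nuclei were then sorted by marker genes, with mitochondrial genes left out of the sorting. A nucleus was gated as muscle fibre when at least 10% of its non-mitochondrial UMIs came from muscle markers and no other type had 3 markers. Any other type needed at least 3 of its markers, more than any other non-muscle type, and under 10% muscle UMIs. Nuclei that met both, or tied between types, were called mixed and entered no comparison between types. In subcutaneous fat mixed nuclei were deeper than muscle fibre nuclei, with median UMIs of 1097 and 711 against 714 and 504. Among types with at least 10 nuclei in a library, mitochondrial transcripts took the smallest share in adipocyte-gated nuclei. The share was 0.840% (900 nuclei) and 0.00996% (51) in the intramuscular libraries, and 0.646% (153) and 0.422% (18) in the subcutaneous ones. Progenitor-gated nuclei, fibroblast-like cells that can form adipocytes, had 2.00% (457 nuclei) in intramuscular fat of animal 1, and 1.13% (216) and 0.713% (60) in subcutaneous fat. Blood endothelial-gated nuclei had 1.63% (189) in intramuscular fat of animal 1, against 0.991% (130) and 0.788% (107) in subcutaneous fat. Thus these 3 types all stood in the order intramuscular fat of animal 1, subcutaneous fat of animal 1, subcutaneous fat of animal 2, and their counting intervals did not overlap.

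Further types were frequent enough in subcutaneous fat alone. Pericyte and smooth muscle-gated nuclei had 1.45% (32 nuclei) and 1.08% (26), macrophage-gated nuclei 1.69% (19) in animal 1, and muscle fibre-gated nuclei 2.08% (119) and 1.60% (5464). The muscle gate is a range cut from a score: 37 of the 119 and 1097 of the 5464 nuclei had 10% to 20% muscle UMIs, next to the limit. In those the mitochondrial share was 1.29% and 1.09%, against 2.68% and 1.76% at 20% to 30% muscle UMIs and 2.01% and 1.62% above. All 10 transcripts were lowest in adipocyte-gated nuclei in both libraries of animal 1. In subcutaneous fat of animal 2, 9 of 10 were, with ND5 the exception at 130 CPM in adipocytes and 84.2 CPM in pericyte and smooth muscle-gated nuclei, on 4 and 2 UMIs. The highest type was progenitor for 9 of 10 in intramuscular fat of animal 1, and muscle fibre for 6 and 8 of 10 in subcutaneous fat.

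**Figure D2:**
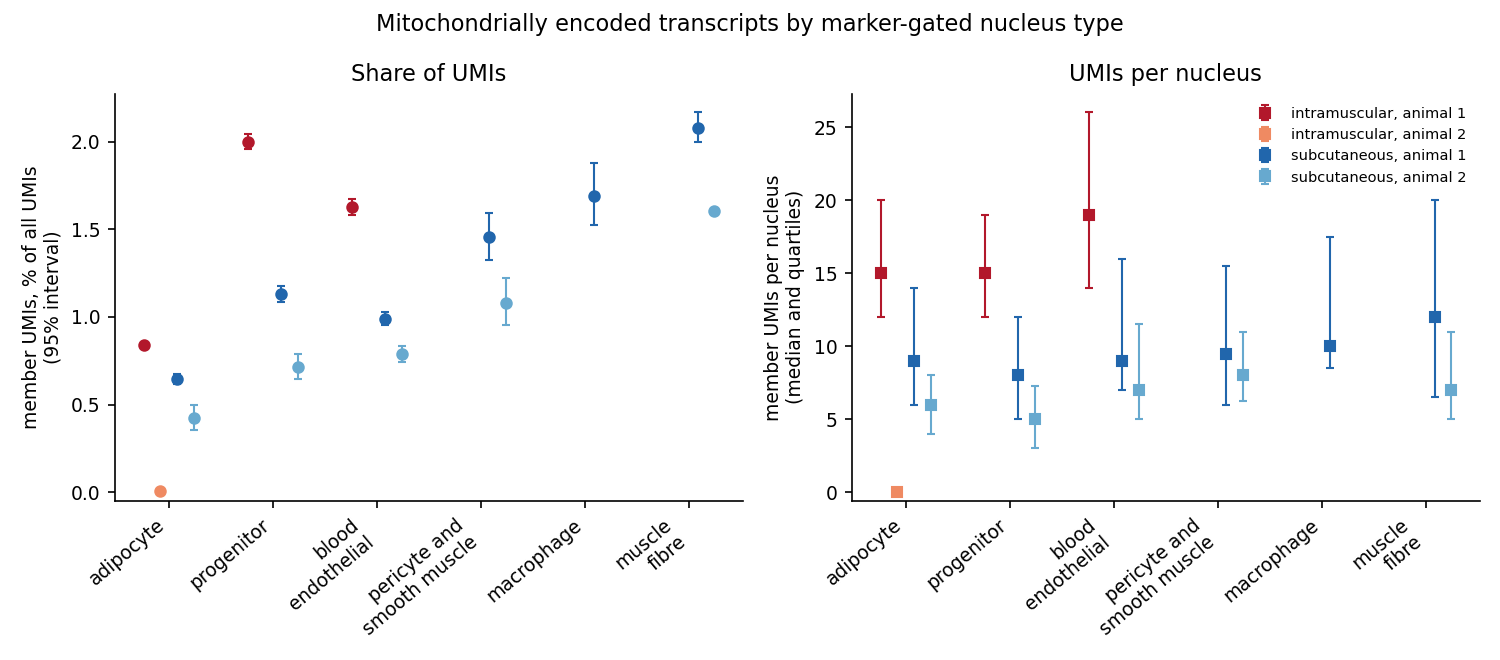
Left, UMIs of the 10 transcripts as a percent of all UMIs with exact 95% intervals, by gated type and library; right, their number per nucleus, median with quartiles. Types with under 10 nuclei in a library are not drawn. By share adipocytes are lowest, at 0.840% against 2.00% in progenitors of the same intramuscular library, while the medians per nucleus are 15 in both.

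Counted per nucleus, adipocytes did not hold fewer mitochondrial UMIs than progenitors. The adipocyte mean was 17.5 UMIs of the 10 transcripts in intramuscular fat of animal 1, and 12.8 and 7.22 in subcutaneous fat. The progenitor mean was 16.6, and 11.2 and 6.65. The ratio of adipocyte to progenitor was 1.05, 1.14 and 1.09 in UMIs per nucleus, but 0.420, 0.571 and 0.592 in shares of UMIs. Adipocyte-gated nuclei were deeper, with 2.43, 2.15 and 2.62 times the median UMIs of progenitors. Blood endothelial-gated nuclei held more than both, at 24.1, and 19.2 and 11.5 UMIs per nucleus. Muscle fibre-gated nuclei of subcutaneous fat held 19.3 and 9.84. In adipocyte-gated nuclei of the intramuscular library of animal 2 the mean was 0.196 per nucleus.

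Over all nuclei of intramuscular fat of animal 1, the median number of mitochondrial UMIs varied little with how deeply a nucleus was counted, but types differed in this. There the number per nucleus had a median of 16, with quartiles of 12 and 20, and its Spearman correlation with the other UMIs of the nucleus was 0.168 over 1777 nuclei of 1 library. In 4 equal bins of those nuclei, shallowest first, the median of other UMIs was 554, 803, 1447 and 2613, while the median of mitochondrial UMIs was 15, 15, 15 and 17. The share was therefore 2.76%, 1.99%, 1.15% and 0.685%. The mean number rose from 15.9 in the shallowest bin to 22.1 in the deepest. Within the adipocyte-gated nuclei alone the 4 bins had medians of 15, 14, 15 and 17, and shares of 2.21%, 1.03%, 0.788% and 0.517%. By type, the Spearman correlation in this library was 0.130 in adipocytes, 0.317 in progenitors and 0.626 in blood endothelial nuclei. In the subcutaneous libraries the count grew more with depth, with medians of 7, 7, 10 and 16 in animal 1 and 6, 6, 7 and 12 in animal 2, and the Spearman correlations were 0.435 and 0.393. Share and mean number per nucleus gave different orders for adipocytes and progenitors, but both put adipocytes below blood endothelial and muscle fibre nuclei. Medians per nucleus lay closer. In subcutaneous fat they were 9 and 6 in adipocytes, 9 and 7 in blood endothelial nuclei, and 12 and 7 in muscle fibre nuclei. In intramuscular fat of animal 1 the median was 15 in adipocytes and 19 in blood endothelial nuclei.

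**Figure D3:**
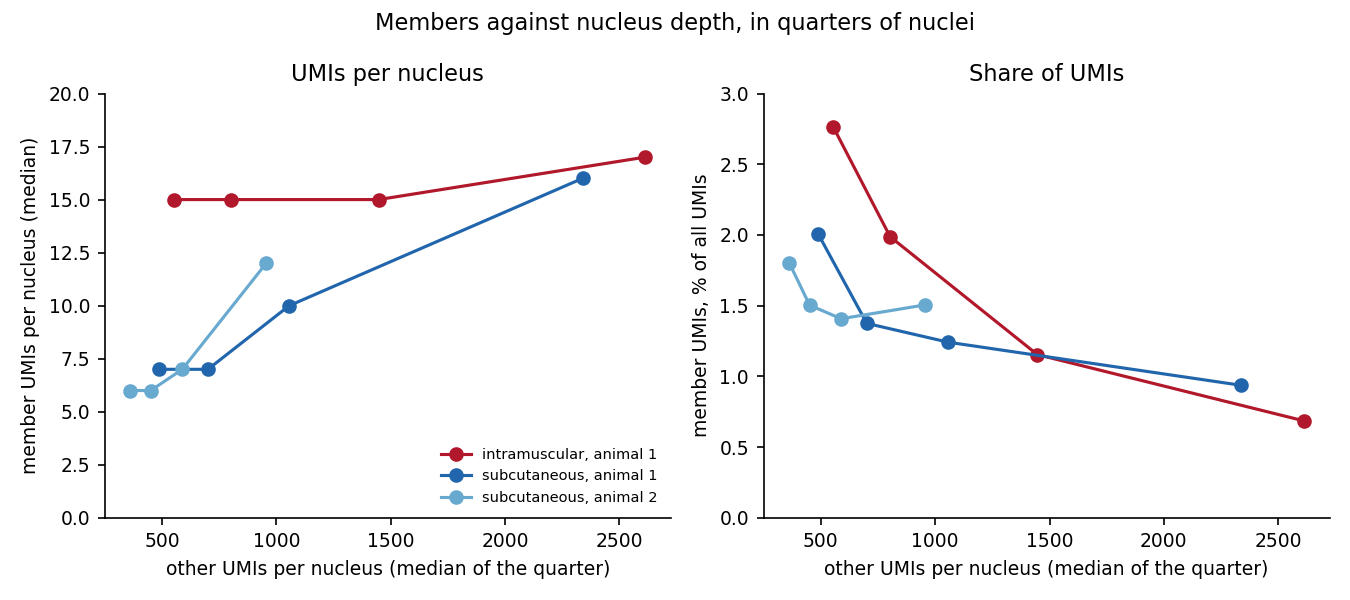
Nuclei of 3 libraries in 4 equal bins by the number of UMIs from all other genes (horizontal axis, median of the bin), with the median number of UMIs of the 10 transcripts per nucleus on the left and their percent of all UMIs on the right. In intramuscular fat of animal 1 the median number over all nuclei stays at 15 to 17 while the share falls to 0.685% in the deepest bin.

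A few nuclei were rich in these transcripts. In subcutaneous fat of animal 1 the highest nucleus had 28.1% of its UMIs from them and 6 nuclei had 10% or more. In that of animal 2 there were 2, with a highest share of 13.7%, and in intramuscular fat of animal 1 there were 0, with a highest share of 9.97%. At 5% or more, 26 of 1777 nuclei were found in intramuscular fat of animal 1, and 18 of 881 and 77 of 6128 in subcutaneous fat. In intramuscular fat of animal 1, 15 of the 26 were adipocyte-gated, 1.67% of such nuclei, a gate that held 50.6% of the nuclei there. In subcutaneous fat of animal 1, 8 of the 18 were muscle fibre-gated, 6.72% of such nuclei, a gate that held 13.5% of the nuclei. In that library they were 1.85% of progenitors, 1.54% of blood endothelial nuclei, 1 of 19 macrophages and 0 of 153 adipocytes. In subcutaneous fat of animal 2, 73 of the 77 were gated as muscle fibre, 1.34% of such nuclei, and the other 4 were mixed, 1.32% of those. The muscle gate held 89.2% of the nuclei there, so the 73 mostly restate its size.

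The mix of the 10 transcripts varied less between types than their level for the frequent transcripts of intramuscular fat of animal 1. Within intramuscular fat of animal 1, ND1 was 8.79% to 9.13% of the UMIs of the 10 across adipocytes, progenitors and blood endothelial nuclei, ND2 5.97% to 6.16% and COX3 23.2% to 24.7%. COX1 ran from 21.1% in progenitors to 24.7% in blood endothelial nuclei. In subcutaneous fat of animal 1, over 6 types, COX2 ran from 8.12% in macrophages to 12.5% in muscle fibre nuclei, and ND1 from 6.32% in muscle fibre nuclei to 9.80% in macrophages. Across 14 library-by-type sums outside the intramuscular library of animal 2, the 45 pairs of transcripts had Pearson correlations of log2 CPM from 0.466 (ND5 and COX2) to 0.967 (ATP6 and CYTB), with a median of 0.842. These sums share libraries and depth, so the correlations are a description.

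By share of UMIs, muscle fibre-gated nuclei had more of every one of the 10 transcripts than the other gated nuclei of the same subcutaneous library. COX1 had 5083 and 3538 CPM in muscle fibre nuclei of animals 1 and 2, against 1997 and 1583 CPM in the others. COX2 had 2609 and 2332 CPM, against 916 and 985 CPM. CYTB had 1966 and 1475 CPM, against 768 and 697 CPM. ND5 moved least, with 290 and 211 CPM against 209 and 160 CPM. In both animals each muscle CPM lay above that of the other nuclei, and the median ratio over the 10 was 2.01 and 2.08. Counted per nucleus the order differed: muscle fibre nuclei, with median depths of 714 and 504 UMIs, held 19.3 and 9.84 UMIs of the 10. Blood endothelial nuclei held 19.2 and 11.5, and pericyte and smooth muscle nuclei 14.4 and 9.88. Adipocytes, progenitors and, in animal 1, macrophages held fewer than muscle fibre nuclei. In edgeR with the library as a block, 47.1% of 7626 genes passed, 20.1% as higher and 27.0% as lower in muscle fibre nuclei, and 10 of the 10 members were among the higher ones. Their log2 fold changes ran from 1.37 for ND5 (SE 0.36) to 2.31 for COX2 (SE 0.59), with adjusted p-values in edgeR of 8.60e-05 to 0.0108 and a median of 1.98 against -0.38 over all genes tested. With 4 sums from 2 libraries, these p-values lean on variation pooled over genes and say little about the spread between the 2 libraries. The fold changes are on totals scaled by TMM and the ratios on plain totals, so they are not the same quantity. On plain totals the median log2 ratio of the 10 was 1.01 and 1.06, so TMM moved the values up in this comparison. Without the block 9 passed, among nuclei with at least 500 genes 9, and with no filter on low counts 9.

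By share of UMIs, muscle fibre-gated nuclei had 1.84% ± 0.338 and the other gated nuclei 0.842% ± 0.132 (SD, n = 2 each). The difference of 0.999 points had an exact two-sided permutation p of 0.5, the smallest that 2 libraries allow. Thinned to 500 UMIs, muscle fibre nuclei held 8.98 and 7.49 mitochondrial UMIs, adipocytes 3.59 and 3.06, progenitors 6.14 and 3.39, and blood endothelial nuclei 5.45 and 4.20. Thinned values follow the share of UMIs of each nucleus, so they repeat the share and are no check on depth. Thinning left out 24 of the 119 and 2672 of the 5464 muscle fibre nuclei. Muscle markers were also present in the other types of these libraries, at 1.03% and 4.36% of the non-mitochondrial UMIs of adipocyte-gated nuclei and 0.987% and 4.45% of those of blood endothelial nuclei; the part of shared RNA in the comparison was not tested.

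Adipocyte-gated nuclei had less of the 10 transcripts than the other non-muscle gated nuclei, by share. COX3 had 2044 CPM in adipocytes of intramuscular fat of animal 1, and 1737 and 1103 CPM in those of subcutaneous fat, against 4456, and 2802 and 1804 CPM in the other nuclei. COX1 had 1788, and 1307 and 681 CPM, against 4130, and 2399 and 1697 CPM. ND1 had 738, and 572 and 259 CPM, against 1681, and 950 and 534 CPM. In all 3 libraries each of the 10 was lower in adipocytes, with median ratios of 0.458, 0.573 and 0.499, and ATP8 had 0 UMIs in the 18 adipocyte nuclei of subcutaneous fat of animal 2. In edgeR with the library as a block, 31.5% of 8423 genes passed, 13.3% as higher and 18.2% as lower in adipocytes, and 7 of the 10 members were among the lower ones, ND1, ND2, ND5, CYTB, COX1, ATP6 and ATP8. The largest was ND5 at -1.37 (SE 0.35, adjusted p in edgeR 0.00266). COX2 had -1.01 (SE 0.41), COX3 -1.04 (SE 0.44) and ND4 -0.93 (SE 0.39), with adjusted p-values in edgeR of 0.0572, 0.0726 and 0.0658. The median over the 10 was -1.13, against -0.03 over all genes tested.

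The call on adipocytes rested on the design and on single libraries, although the direction did not change in any of them. Without the library block 0 members passed in edgeR, with 2 at an unadjusted p under 0.05, and DESeq2 with the block called 9. Leaving out single libraries gave 4 (intramuscular fat of animal 1 out), 0 (subcutaneous fat of animal 1 out) and 5 (subcutaneous fat of animal 2 out). By share, adipocytes had 0.636% ± 0.209 and the other nuclei 1.25% ± 0.540 (SD, n = 3 each), a difference of -0.609 points with an exact two-sided permutation p of 0.25, the smallest that 3 libraries allow. These 3 libraries come from 2 animals, with both libraries of animal 1 among them.

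**Figure D4:**
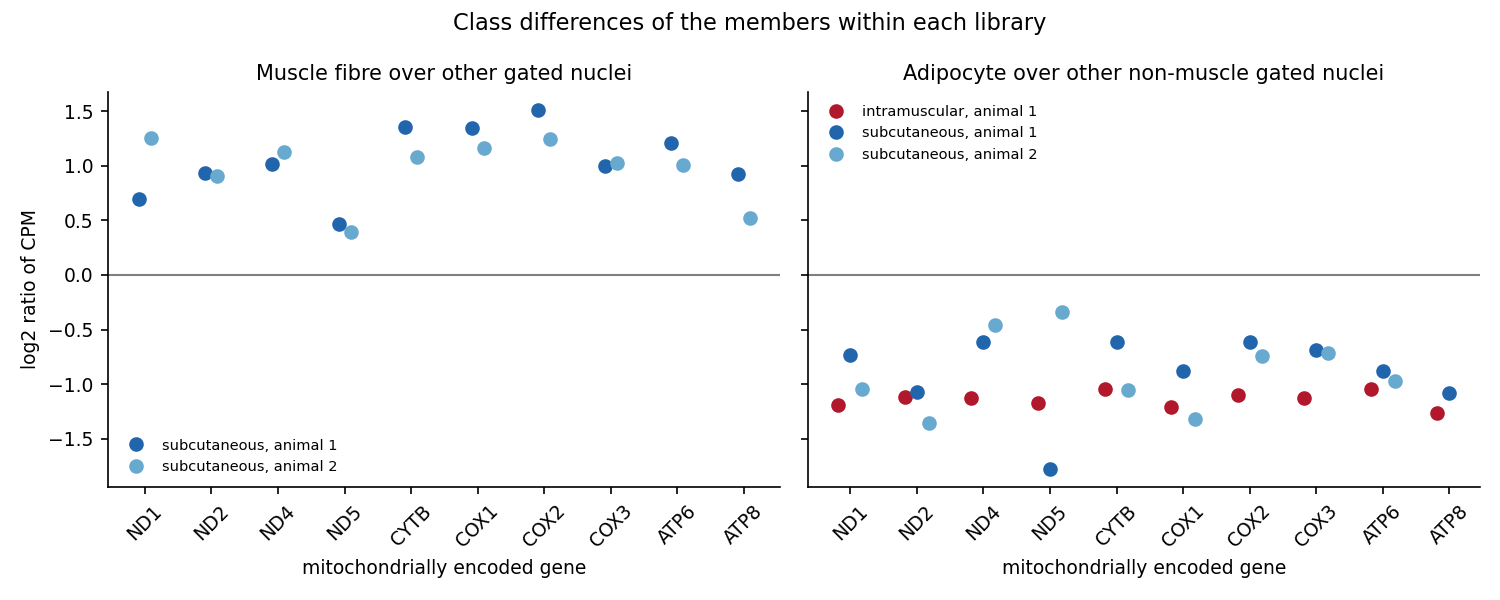
Log2 ratio of CPM between nucleus classes within each library, for the 10 transcripts; left, muscle fibre-gated over other gated nuclei of the 2 subcutaneous libraries; right, adipocyte-gated over other non-muscle gated nuclei of 3 libraries. All 20 points on the left are above 0 and all points on the right are below 0; ATP8 has no point for subcutaneous fat of animal 2, where the adipocytes had 0 UMIs.

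Between depots within adipocyte-gated nuclei, edgeR called 0.853% of 4806 genes, all of them lower in intramuscular fat. Of the 9 members tested, ATP8 being under the count filter, it called 0, with 0 at an unadjusted p under 0.05, and DESeq2 called 0. COX1 had 1788 and 49.8 CPM in intramuscular adipocytes, against 1307 and 681 CPM in subcutaneous ones, and COX2 had 950 and 0 CPM against 685 and 616 CPM. The intramuscular libraries thus lay on both sides of the subcutaneous ones, and the median log2 fold change was -0.14. With the animal as a block, 68 genes passed in place of 41, and 0 members.

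Each intramuscular library alone gave its own direction. With that of animal 2 left out, the 10 members tested had a median of 0.83, 0 were called by edgeR and 1 (ND2) had an unadjusted p under 0.05. With that of animal 1 left out, 8 of 9 members passed as lower, where 5.72% of 3551 genes did. The intramuscular side is then the 1 library whose near absence led to the choice of these genes, so this count restates that value and is no test of it. The log2 fold change was then -4.35 for COX1 (SE 0.84) and -6.12 for COX3 (SE 1.00), while ND5 had -1.67 (SE 1.53). That fit has a lone intramuscular library, taken to vary as the subcutaneous pair does.

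The nuclear-encoded partners of these transcripts were also few in the intramuscular library of animal 2, but less so. All nuclear-encoded subunits of complexes I to V together took 0.926% and 0.218% of UMIs in the intramuscular libraries, against 1.25% and 2.92% in the subcutaneous ones, and 29 of the 78 genes were at 0 in that of animal 2. The share in the intramuscular library of animal 1 was 4.25 times that of animal 2 (3.73 to 4.86), compared with 124 times for the mitochondrially encoded transcripts (67.3 to 258). Cytosolic ribosomal protein genes, a list of abundant cytoplasmic mRNAs, had 1.14% and 0.0920%, against 1.59% and 1.66%. Their ratio was 12.3 (10.1 to 15.2). A short list of other abundant cytoplasmic products (EEF1A1, GAPDH, ACTB, TPT1, FTH1, FTL and B2M) had a ratio of 6.68 (5.50 to 8.19). The mitochondrially encoded transcripts were chosen partly for their near absence in that library. Their place above the other lists, here and in adipocyte-gated nuclei below, is therefore described and is no test.

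In adipocyte-gated nuclei, where the type is held the same, the order was similar. Shares in the intramuscular library of animal 1 and the 2 subcutaneous libraries were 84.3, 64.8 and 42.3 times that of the intramuscular library of animal 2 for the 10 transcripts. For nuclear-encoded complex IV subunits the ratios were 18.9, 12.3 and 22.8, on 7 UMIs in the intramuscular library of animal 2. Cytosolic ribosomal genes had 8.45, 7.08 and 9.25, and nuclear-encoded complex I subunits 2.69, 2.20 and 3.05. Genes of mitochondrial transcription and replication had 1.71, 2.01 and 1.13. For mitochondrial RNA processing and stability the intervals of the ratios were 0.924 to 1.59, 0.921 to 1.68 and 0.923 to 2.43, all of which include 1. The biogenesis regulators had 0.513, 0.664 and 0.362, with only the first interval off 1 (0.363 to 0.744). Lists of mRNAs abundant in cytoplasm were low in that library together with the mitochondrial transcripts, and their part in the result was not tested.

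**Figure D5:**
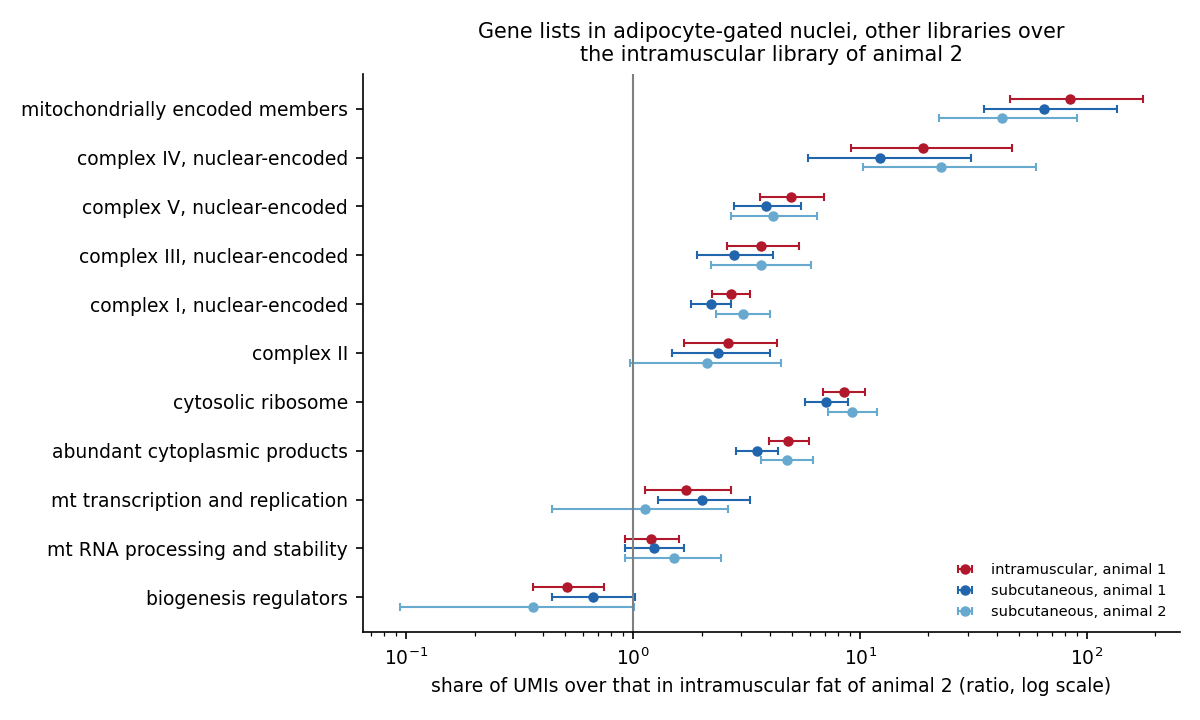
Share of UMIs of each gene list in adipocyte-gated nuclei of 3 libraries, divided by that in the intramuscular library of animal 2 (log scale, 95% counting intervals). The 10 mitochondrially encoded transcripts lie farthest to the right, at 84.3, 64.8 and 42.3, and the lists of mitochondrial RNA processing and biogenesis regulators lie near or below 1. The 10 transcripts were chosen partly for their near absence in the library divided by, so their place is a description.

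Between depots in whole libraries, 1 of the 77 tested nuclear-encoded subunits passed edgeR's test, and 43 had an unadjusted p under 0.05. The 1 that passed is about the share over all genes, of which 1.46% passed as lower. For the 43 the share over all genes is not given here, so nothing is read from that count. The gene was COX6A2, the muscle form of a complex IV subunit, with 0 UMIs in both intramuscular libraries and 234 and 824 CPM in the subcutaneous ones. It was at least 8.21-fold lower, with 3 counts per library as the limit (adjusted p in edgeR 0.0338). The muscle-rich forms COX8B and COX7A1 had 11.8 and 0 CPM, and 15.1 and 19.0 CPM, in intramuscular fat, against 331 and 892 CPM, and 175 and 409 CPM, in subcutaneous fat, neither past the threshold. Medians of the log2 fold changes were -2.53 for complex I, -2.25 for complex II, -2.95 for complex III, -2.98 for complex IV and -2.84 for complex V. Within adipocyte-gated nuclei no nuclear-encoded subunit passed of 63 tested, with 1 at an unadjusted p under 0.05 (COX8B) and a median of -0.13.

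In muscle fibre-gated nuclei most of the nuclear-encoded partners were also higher. Of 77 tested subunits 74 rose and 1 fell, with a median log2 fold change of 2.55, against 1.98 for the 10 transcripts and the background of 20.1% given above. For complex I, 37 of 37 rose, among them NDUFA13, a membrane arm subunit, with 353 and 369 CPM in muscle fibre nuclei and 48.7 and 94.8 CPM in the others (3.33, SE 0.40, adjusted p in edgeR 5.66e-15). All 4 subunits of complex II rose, a complex with no mitochondrially encoded part, with a median of 2.45. Complex III had 9 of 9 and complex V 16 of 16. Of the 11 tested for complex IV, 8 rose and 1 fell, led by COX6A2 at 3.91 (SE 0.49) and COX8B at 3.85 (SE 0.52). As shares of UMIs, all subunits together had 3.27% and 3.13% in muscle fibre nuclei, against 0.623% and 0.827% in adipocytes of the same libraries. Of 22 cytosolic ribosomal genes 4 were higher and 1 lower, with a median of 0.64, a share of higher calls near that over all genes. The upward shift by TMM enters that median: RPLP0, at 1.30, had 834 and 811 CPM against 616 and 664 CPM. By plain share these genes took 1.56% and 1.66% in muscle fibre nuclei. Adipocytes had 0.628% and 0.821%, and blood endothelial nuclei 2.95% and 2.25%.

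The regulators of mitochondrial RNA were tested on few genes in that comparison, where 20.1% of all genes passed as higher. PPARGC1A, a co-activator that drives mitochondrial biogenesis, had 172 and 58.4 CPM in muscle fibre nuclei and 48.7 and 0 CPM in the other nuclei (3.24, SE 0.45, adjusted p in edgeR 2.95e-11). These values rest on 19 and 196 UMIs against 40 and 0. The fold change is partly set by the 0 of animal 2, so its size is not well measured. PPARGC1A was the 1 of 4 biogenesis regulators that rose. SLIRP and LRPPRC, which together bind and stabilise mitochondrial mRNAs, rose by 2.23 (SE 0.38) and 1.68 (SE 0.38), among 4 of 8 processing genes. SSBP1, which binds single-stranded mitochondrial DNA, rose by 2.34 (SE 0.47), among 3 of 6 genes of transcription and replication.

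In adipocyte-gated nuclei against the other non-muscle nuclei, some of the partners were lower. Over all genes tested there, 18.2% passed as lower and 13.3% as higher. Of 77 tested subunits 28 fell and 0 rose, with a median of -0.70, against -1.13 for the 10 transcripts. Complex V had 10 of 16 lower, led by ATP5MC2, a subunit of the rotor ring, at -1.42 (SE 0.34). Complex I had 11 of 37, complex IV 5 of 11 (COX8A, -1.50, SE 0.37) and complex III 2 of 9, the last near the share over all genes. For complex II, 0 of 4 passed in edgeR, with 0 at an unadjusted p under 0.05, and the median was -0.06. All 22 cytosolic ribosomal genes fell, with a median of -1.68. Of the 7 abundant cytoplasmic products 6 fell, led by B2M, the light chain of class I antigen presentation, at -3.61 (SE 0.55). MTERF2, a mitochondrial transcription termination family member, rose by 2.50 (SE 0.49), higher in 2 of the 3 libraries, with 71.6, and 89.3 and 0 CPM in adipocytes, against 8.98, and 13.5 and 16.4 CPM in the other nuclei. SUPV3L1, an RNA helicase of the mitochondrial degradosome, rose by 1.59 (SE 0.41). SLIRP fell by 1.28 (SE 0.41), and of 12 genes of RNA processing 2 were higher and 1 lower, near or under the shares over all genes.

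Among 4421 genes outside the mitochondrial genome with at least 50 CPM on average, FTH1, the heavy chain of the iron store ferritin, had the pattern most like that of the 10 transcripts summed. Its Pearson correlation of log2(CPM + 1) was 0.979 over 15 library-by-type sums. The next were ERH (0.971), EMC10 (0.960), SNRPG (0.956) and the ribosomal protein gene RPL39 (0.956). All 5 had 0 UMIs in adipocytes of the intramuscular library of animal 2, and that 1 sum sets much of the likeness. Without it, over 14 sums, FTH1 had 0.820 and was still first. The next there, named after their values were seen, were BLVRB (0.815), MICOS13 (0.811), YBX1 (0.803) and PRDX1 (0.795), while ERH had 0.746 and EMC10 0.607.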

How the data were processed

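Per the file headers, the deposited matrices hold UMI counts per gene and barcode made by the authors with Cell Ranger 6.0.1, already filtered to called barcodes. The build was ARS-UCD1.2, per the submitters' processing notes. Which annotation release served, and if introns were included, is not given in the sources used here. From these counts, nuclei with at least 200 detected genes were kept with no limit on mitochondrial UMIs, gated by marker lists, and summed per library and gate (at least 10 nuclei). No doublet caller was run: nuclei that met several gates (mixed) stayed out of the comparisons between types. Sums were tested with edgeR 4.0.16 (TMM, filterByExpr, quasi-likelihood), with DESeq2 1.42.0 as an alternative, in R 4.3.3. Shares were compared with exact permutation tests (scipy 1.17.1). Comparisons between types had the library as a block. Libraries of the same animal number come from the same animal, per the labels, so depot comparisons were repeated with the animal as a block. Intervals are exact 95% ones for counting error alone, and 0 UMIs were taken as up to 3 UMIs. Scripts were tested on simulated data. Genes named are the 10 members, the 3 with the smallest p in each list, and the 5 most like the members in pattern. The members and all lists were chosen with earlier results of these data known. Of the 80 nuclear-encoded subunits listed, 78 were found in the features. The order and overlaps of the mitochondrial genes come from a gene table of another assembly, so no coordinates are given.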

Additional observations from a re-analysis of the deposited data

Results flagged for a closer look

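In 3 transcripts the 2 animals differed between depots in opposite directions, each on 1 library a side, so the difference was not tested. The side of animal 2 is the near absence that was part of why these genes were chosen. ND1 was 132 CPM higher in intramuscular than in subcutaneous fat of animal 1, and in animal 2 the difference was -1123 CPM. For ND2 the intramuscular minus subcutaneous differences were 113 CPM in animal 1 and -557 CPM in animal 2. For COX2 they were 79.7 CPM in animal 1 and -2226 CPM in animal 2. Summed over the 10 transcripts they were 78.9 CPM in animal 1 and -15145 CPM in animal 2. The first is within counting error, with a ratio of 1.01 (0.987 to 1.03), so the sum shows no clear direction in animal 1.

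The barcodes under 200 detected genes, used in no comparison, also held these transcripts. In the subcutaneous library of animal 2, 1027 such barcodes had 1.95% of their UMIs from them (1.90 to 2.00), against 1.52% in the nuclei that were kept. In the intramuscular library of animal 2, 17 such barcodes had 1 member UMI of 2368.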

How the results depend on the processing

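Between depots in whole libraries, 169 genes passed; 445 did with no filter on low counts, 348 in DESeq2 and 199 with the animal as a block, and leaving out 1 library gave 24 to 410. Members numbered 0 in every one of these. In adipocyte-gated nuclei 41 genes passed; 67 did with no filter, 68 with the animal as a block, and 37 to 318 with 1 library left out, with 0 to 8 members. In muscle fibre-gated nuclei 3591 passed, 1648 among nuclei with at least 500 genes and 1647 in DESeq2, and leaving out a library left no residual degrees of freedom. For adipocytes against other non-muscle nuclei 2653 genes and 7 members passed, 1707 genes in DESeq2, 1254 genes and 0 members without the replicate block, and 990 to 2836 genes and 0 to 5 members with 1 library left out. Differences in share with 1 library left out ran from -1.33 to -0.172 points between depots, -0.730 to -0.413 for adipocytes and 0.853 to 1.15 for muscle fibre nuclei.

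Signs turned only for log2 fold changes between depots in adipocyte-gated nuclei, none of them called in the main test. ND1 was -0.074 with at least 500 genes, -0.016 with at least 4 markers, -0.21 with a muscle limit of 20% and -1.25 with the animal as a block. ND2 was -0.42 and COX1 -1.17 with that block, COX1 was -0.39 with the muscle limit of 20%, and with no filter ATP6 was 0.023 and CYTB 0.018. With 1 library left out the ranges were -9.01 to 0.98 for ND1, -8.11 to 1.46 for ND2, -9.28 to 0.54 for ND4, -1.67 to 0.94 for ND5, -4.35 to 1.05 for COX1, -9.55 to 0.79 for COX2, -6.12 to 0.76 for COX3, -9.27 to 0.84 for ATP6 and -9.13 to 0.82 for CYTB. The lowest of each range had the intramuscular library of animal 1 left out. ND1, ND2, ND4, COX2, ATP6 and CYTB were at 0 in the other, so their values there are no measure of size, while COX1, ND5 and COX3 had 5, 3 and 2 UMIs. The cause of the other changes was not tested. The likeness without that library was added after the data were seen. With 10 member UMIs in the intramuscular library of animal 2, single transcripts there could be bounded but not ranked.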
